A study of Mus musculus with 26 samples.

Results

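Haematopoietic stem cells (HSCs) of mice with JAK2V617F were compared with those of control mice. JAK2V617F is a point mutation in the pseudokinase domain of the tyrosine kinase JAK2, and it leaves the kinase active without cytokine. The comparison took every library whose genotype label was JAK2V617F (n = 7) or CTR, described as WT (n = 5), which is 12 of the 26 libraries of the series. The rest of the series came from HSCs with Ezh2 loss, alone or with the JAK2 mutation, and is not described here. The study is about myeloproliferative neoplasm, a group of diseases in which mature blood cells are overproduced, and models it in mice.

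HSCs were purified by flow cytometry from bone marrow, and RNA was amplified by Smart-Seq2, a full-length method for small amounts of RNA. Both groups carried the unaltered Ezh2 gene as far as the labels state. How the JAK2 mutation was introduced, its copy number, the promoter or Cre used, and the age and strain of the mice were not given in the sources used. The labels do not state whether each library is a different mouse, and the p-values therefore describe the spread among these libraries, which may be technical. Levels are in RPKM, which divides the reads of a gene by its length and by the size of the library. Differences are JAK2V617F minus control on the log2(RPKM + 1) scale, in which 1 is a doubling for a well expressed gene and changes of low genes are understated.

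JAK2 sits on the inner side of receptors that have no kinase of their own, among them the erythropoietin receptor Epor. When a ligand binds, JAK2 phosphorylates STAT proteins, chiefly STAT5 and STAT3, which move to the nucleus and switch on target genes. These targets include Cish and the Socs genes, which feed back to damp the signal, and the Pim kinases and Bcl2l1, which favour survival. Signalling through MAP kinases from the same receptors induces immediate early genes such as Fos and Jun, whose proteins pair to form the transcription factor AP-1.

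The 12 libraries fell into 2 sets by how their titles were written, with the library number before the group code (number-first) or after it (number-last). What the naming stands for was not stated in the labels. Number-first titles were on 4 of 5 control libraries (replicates 1 to 4) and on 2 of 7 JAK2V617F libraries (replicates 1 and 3). Control replicate 5 was therefore the only control among the number-last libraries. The first principal component, 25.2% of the variance, separated the naming styles (39.65 to 57.81 in number-first and -67.54 to -35.64 in number-last libraries) and not the genotypes. Pairs of libraries of the same style but different genotype had a median correlation of 0.876 across genes, and pairs of the same genotype but different style 0.794. Pairs alike in both had a lower median than the first of these, 0.8215. The sets hold number-first and number-last pairs in unlike shares, so these medians do not weigh style against genotype alone. Style was fitted beside genotype because of the separation on the first component, and values are given by style below. Depth estimated from the RPKM steps was 8.4 to 20.3 Mreads (megareads), on average 17.5 in control and 13.4 in JAK2V617F. It followed style: number-first libraries averaged 18.8 in control and 17.8 in JAK2V617F, and number-last ones 12.2 (1 library) and 11.7. The genes per library that reached 1 RPKM numbered 10150 to 11007 in number-first and 9340 to 9829 in number-last libraries. Xist was near 0 and Y-linked genes were present in control replicate 1 and in JAK2V617F replicates 2, 4 and 7, so both sexes are mixed in both groups.

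**Figure D1:**
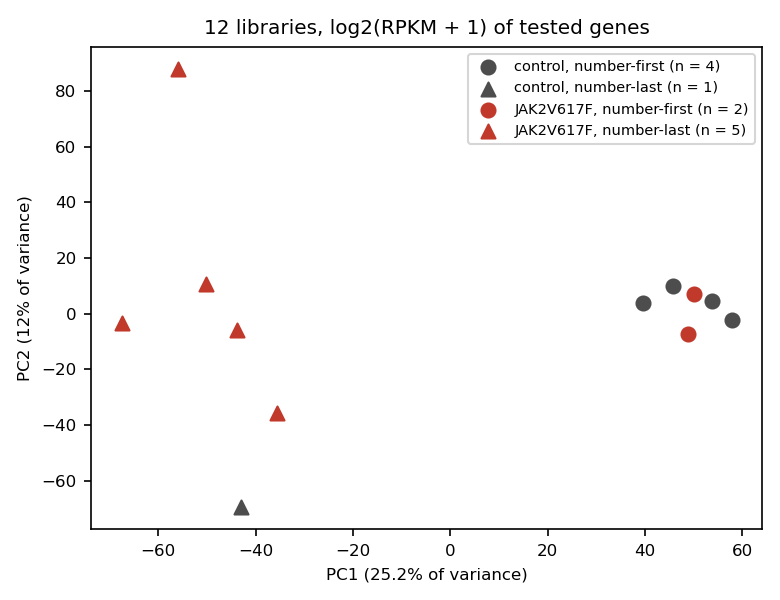
Principal components of the 12 libraries, from log2(RPKM + 1) of the 10866 tested genes. The horizontal axis is the first component (25.2% of variance) and the vertical axis the second (12%); colour marks genotype and shape marks naming style. The 6 number-first libraries sit together on the right whatever their genotype, and control replicate 5 lies at the lower end of the number-last libraries.

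The cells had the transcripts of HSCs. Procr, Slamf1, Kit, Ly6a, Mecom and Hlf, all used to define these cells, were above 0 in all 12 libraries, and Cd48, which marks more mature progenitors, was at 0 in 11 of 12. The B cell genes Cd79a and Pax5, the T cell genes Cd3e and Cd3g, the monocyte gene Ccr2, the basophil gene Mcpt8 and the endothelial gene Cdh5 were at 0 in all 12. Other members of these lists were present. Of 11 B cell genes 7 were at 0 in all 12 libraries, but Cd79b was at 53.1 to 181 RPKM, and the summed level was 62.2 to 103 RPKM in control and 63.6 to 181 in JAK2V617F. Of 13 T and NK cell genes 7 were at 0 in all 12, with Lck at up to 20.7 RPKM and a summed level of 20.7 to 250 (the highest in control replicate 5) and of 25.1 to 135. Of 18 monocyte and dendritic genes 5 were at 0 in all 12, while Lyz2 was at 707 to 1531 RPKM, and the summed level was 746 to 1034 and 766 to 1606. Of 10 mast cell and basophil genes 7 were at 0 in all 12, with Cpa3 at up to 13.2 RPKM. Their summed level was 43.2 to 166 in control and 41 to 111 in JAK2V617F. Of 13 endothelial and stromal genes only 1 was at 0 in all 12, and Col1a2 reached 11.1 RPKM. Their summed level was 35.8 to 77.1 and 30.2 to 66.5. Neutrophil transcripts set 1 library apart. The summed RPKM of the 21 granulocyte genes in the table was 18230 in JAK2V617F replicate 3, against 266 to 832 in the control libraries and 414 to 755 in the other JAK2V617F libraries. In bulk samples, fewer cells of a type and less RNA per cell cannot be told apart.

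No gene passed the test of JAK2V617F against control. Of 10866 genes tested with limma, 0 passed at a Benjamini-Hochberg adjusted p under 0.05, and the smallest adjusted p was 0.548. At an unadjusted p under 0.05 there were 422 genes (3.88% of those tested), 218 higher in JAK2V617F (2.01%) and 204 lower (1.88%). Without the style term 0 passed as well, with 789 genes at an unadjusted p under 0.05 (7.26%), 547 of them lower. The naming style itself was associated with 866 genes at an adjusted p under 0.05 (7.97%) in the same fit. The median standard error (SE) of a genotype difference was 0.54. For each gene described below the adjusted p from limma was 0.9997 except where another is given, and none of these differences passed.

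Jak2 itself (chr19:29251828-29313080, plus strand, GRCm38) was at 17.1, 19.3, 14.1, 21.2 and 9.17 RPKM in control replicates 1 to 5. In the 7 JAK2V617F libraries it ranged from 0.996 to 18.9 with a median of 14.5. The groups overlapped, and 1 JAK2V617F library, replicate 5, lay far below the other 6. The difference was -0.15 (SE 0.58, 95% interval -1.38 to 1.09), with p = 0.733 in an exact permutation test within naming style, which has 90 arrangements and allows no p below 0.0111. Gene-level RPKM does not show the base change, so this value does not check the labels. Ezh2, the methyltransferase altered elsewhere in the series, was at 23.7 ± 10.4 RPKM in control (SD, n = 5) and 27.1 ± 8.21 in JAK2V617F (SD, n = 7), a difference of 0.10 (SE 0.41, exact permutation p = 0.878). Adjusted over these 2 exact tests both p-values were 0.878.

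The other kinases and STAT factors were close to their control levels in relation to their errors. Of 11 genes in the list 4 were higher and 7 lower, with a median of -0.09 beside -0.02 over all tested genes, of which 48.6% were higher and 51.4% lower. Jak1, which pairs with JAK2 under interferon and interleukin-6 family receptors, was at 65.9 ± 21.8 RPKM in control and 73.1 ± 17.1 in JAK2V617F (0.44, SE 0.27). Stat5a was at 24.8 ± 11.1 and 25.4 ± 10.3 RPKM (-0.31, SE 0.38). None of the 11 had an unadjusted p under 0.05.

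Of 17 tested cytokine receptors 10 were lower, a share near the 51.4% of all genes tested. Their median was -0.23, within the spread of the list between libraries (SD 0.261), and 0.095 without JAK2V617F replicate 1. Epor, which red cell precursors need for survival, stood at 14.1 ± 7.84 and 11.2 ± 9.39 RPKM (-0.37, SE 0.79).

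Of 22 tested target genes of STAT5 and STAT3, 16 had a lower and 6 a higher level in JAK2V617F (median -0.24), beside 51.4% of all tested genes that were lower. At an unadjusted p under 0.05 there were 3 members, all lower, beside 1.88% of all tested genes. The feedback inhibitor Cish was at 78.2, 61.4, 39.1, 73.7 and 65.6 RPKM in control and from 7.93 to 65.4 with a median of 27.3 in JAK2V617F. By style this was a difference of 0.03 in number-first and -1.54 in number-last libraries (-0.57 in the fit, SE 0.47). Socs2, a growth hormone and STAT5 target that inhibits the same receptors, was at 41.1 ± 16.5 and 34.9 ± 14.1 RPKM (-0.02, SE 0.42). Pim1 was at 12.2 ± 7.13 and 7.61 ± 6.72 RPKM (0.27, SE 0.51), and the survival gene Bcl2l1 at 15.7 ± 8.6 and 8.19 ± 9.01 (-0.35, SE 0.70). For the last pair the fit without style gave -0.78 and -1.44, so the direction of Pim1 rests on the style term.

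Gfi1b, a repressor that restrains HSC and megakaryocyte expansion, was at 158, 179, 172, 149 and 217 RPKM in control. JAK2V617F libraries ranged from 74.9 to 159 with a median of 103, and the highest of them was above 2 of the 5 controls. The difference was -0.55 (SE 0.23), but -0.12 in number-first libraries against -1.24 in number-last ones. Only Fos (-1.38) and Junb (-0.81), which are also immediate early genes, were further members under 0.05. The list median was -0.63 without the style term and kept a negative sign in 27 of 27 alternative settings (-0.63 to -0.13). These settings share libraries, and some, such as dropping the filter on low values, could not move this median. They are therefore not 27 separate checks. Inhibitors of the pathway were evenly split, 8 higher and 9 lower of 17 (median -0.06), with Socs5 at 18.2 ± 6.22 and 8.71 ± 4.71 RPKM (-0.86, SE 0.48).

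**Figure D2:**
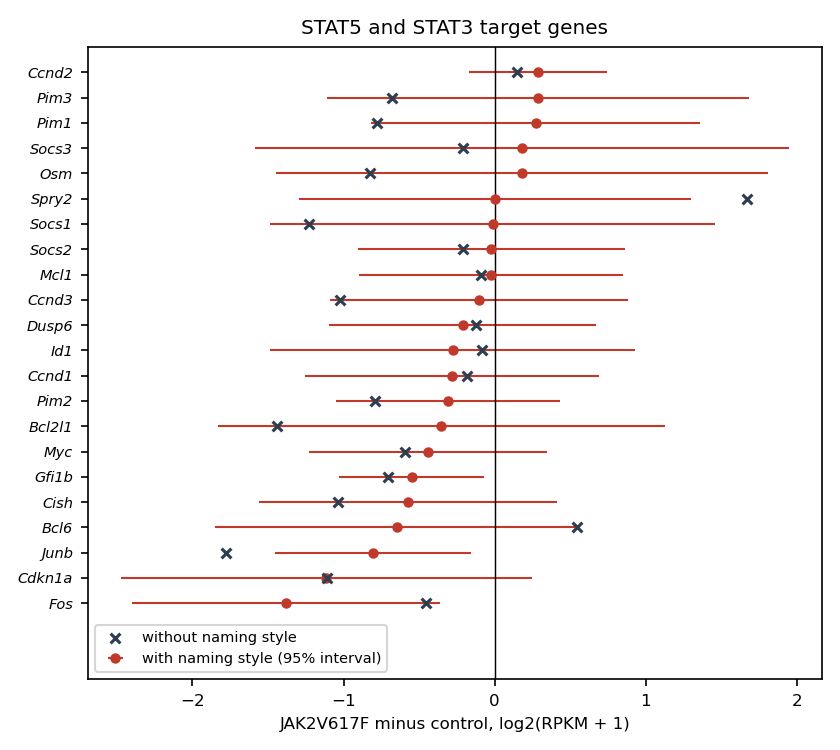
Differences (JAK2V617F minus control, log2(RPKM + 1)) of the 22 tested STAT5 and STAT3 target genes; red points are the fit with naming style with 95% intervals, crosses the fit without it. Intervals of Fos, Junb and Gfi1b lie below 0, all others include 0, and crosses lie left of the points for most genes.

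Immediate early genes had the most negative median of the lists with at least 5 tested genes in the fit with style. Without the style term their median was -0.42, and those of STAT targets (-0.63), erythroid (-0.60) and ribosomal genes (-0.58) were lower. These genes are induced within minutes by growth factors and stress without new protein synthesis. Of 29 tested members 24 were lower in JAK2V617F, beside 51.4% of all tested genes, and the median was -0.59. Within number-first libraries 22 of 29 were lower, and within number-last libraries 16 of 29. At an unadjusted p under 0.05 there were 8 lower and 2 higher members, beside 1.88% and 2.01% of all tested genes. Because the list was chosen with earlier results of these data known, its direction is a description.

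The windows of 250 bases before the transcription start of 4 of the members with low p are shown because they carry binding sequences of the ATF, CREB and AP-1 factors. They are RefSeq windows of GRCm38.p6, read 5′ to 3′ on the gene's strand, with the matched 8 bases in capitals.
Jun (chr4:95052223-95052472, minus): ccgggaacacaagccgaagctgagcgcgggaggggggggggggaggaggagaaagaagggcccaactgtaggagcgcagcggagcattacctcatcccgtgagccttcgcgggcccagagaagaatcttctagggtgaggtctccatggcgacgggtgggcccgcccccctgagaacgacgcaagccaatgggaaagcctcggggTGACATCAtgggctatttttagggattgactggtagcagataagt
Klf6 (chr13:5861239-5861488, plus): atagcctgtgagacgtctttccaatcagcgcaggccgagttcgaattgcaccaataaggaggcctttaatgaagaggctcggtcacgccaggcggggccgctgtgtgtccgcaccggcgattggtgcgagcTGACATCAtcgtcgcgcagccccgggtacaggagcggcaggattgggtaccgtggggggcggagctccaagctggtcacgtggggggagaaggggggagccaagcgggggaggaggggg
Dusp1 (chr17:26508473-26508722, minus): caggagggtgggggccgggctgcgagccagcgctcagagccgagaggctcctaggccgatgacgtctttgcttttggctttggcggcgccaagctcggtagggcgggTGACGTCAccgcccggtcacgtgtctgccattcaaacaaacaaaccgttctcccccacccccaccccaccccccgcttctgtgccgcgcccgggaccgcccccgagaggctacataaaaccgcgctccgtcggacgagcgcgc
Ppp1r15a (chr7:45526269-45526518, minus): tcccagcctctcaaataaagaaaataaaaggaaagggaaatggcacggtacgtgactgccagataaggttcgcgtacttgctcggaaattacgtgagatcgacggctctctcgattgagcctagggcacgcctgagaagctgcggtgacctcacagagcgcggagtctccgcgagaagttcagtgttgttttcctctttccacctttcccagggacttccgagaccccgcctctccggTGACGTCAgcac
The letters TGACGTCA, the cyclic AMP response element, were found on either strand in the windows of 4 of the 26 immediate early genes that had one (15.4%), against 3.14% of the 8116 tested genes with a window. TGACATCA, the form found in Jun and searched for after the sequence was seen, was in 3 of 26 (11.5%) against 1.72%. TGACTCA, the classical AP-1 element, was in 0 of 26 against 3.71%. Fos and Junb held none of the 3, and Ier2 is named only. A match of letters is not a site, and neither share was tested.

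Jun, a subunit of AP-1, was at 64.1, 127, 152, 108 and 67.6 RPKM in control replicates 1 to 5. In JAK2V617F it was at 33.8 and 39.9 in the number-first libraries and at 43.4, 24, 20.4, 11 and 30.5 in the number-last ones. Every JAK2V617F library lay below every control library. The mean log2 level was lower by 1.52 within number-first and by 1.48 within number-last libraries. The difference was -1.51 (SE 0.37, 95% interval -2.28 to -0.74). Such a full separation with JAK2V617F below was found for 23 genes (0.212% of those tested), and with JAK2V617F above for 9 (0.0828%). Without control replicate 5 these counts were 87 and 51, but full separation is easier to reach with fewer libraries.

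Ier2, a nuclear protein induced with the same timing, was at 477, 336, 386, 801 and 544 RPKM in control and from 174 to 384 with a median of 266 in JAK2V617F. It overlapped across styles but lay below the controls within each style (-1.05, SE 0.25). Separation within both styles with JAK2V617F below was seen for 124 genes (1.14%), among them 4 of the 29 immediate early genes: Jun, Ier2, Ppp1r15a and Dusp1. Ppp1r15a, which returns a phosphatase to eIF2α and so restores translation after stress, was at 504 ± 149 and 271 ± 85.2 RPKM (-0.94, SE 0.27). Dusp1, a phosphatase that switches MAP kinases off, was at 1069 ± 355 and 784 ± 299 RPKM (-0.84, SE 0.27).

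Klf6, a zinc finger factor, was at 60.4, 26.3, 36.6, 99.9 and 60.9 RPKM in control and from 15.4 to 63.1 with a median of 17.9 in JAK2V617F. JAK2V617F replicate 2 was above 4 of the 5 controls and replicate 5, at 27.5, above 1, and the other 5 JAK2V617F libraries lay below every control (-1.42, SE 0.44). Fos differed by style: number-first libraries averaged 698 RPKM in control and 146 in JAK2V617F, while number-last libraries had 965 and 891. Its difference was therefore -1.38 with the style term (SE 0.48) and -0.46 without it. Junb, by contrast, was at 452, 283, 446 and 543 in number-first controls and 163 in the number-last control, against 323 and 278 and then 34.6 to 119.7 in JAK2V617F (-0.81, SE 0.31).

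Other early genes had smaller or uneven differences. Dusp2, another MAP kinase phosphatase, was at 223 ± 109 and 94.5 ± 34.0 RPKM (-0.64, SE 0.27). Egr1 was at 181 ± 137 and 161 ± 62.3 RPKM (-0.41, SE 0.42), -0.97 in number-first and 0.49 in number-last libraries. Against the direction of the list, the growth arrest genes Gadd45g and Gadd45b were higher: Gadd45g at 167 ± 91.3 and 291 ± 70.1 RPKM (0.89, SE 0.32). For Gadd45b the means were alike, 92.1 ± 77.2 and 89.3 ± 23.5 RPKM, and its difference of 1.28 (SE 0.55) came from the number-last control at 7.65. Leaving out any 1 library, and all 27 alternatives tried, kept the list median negative (-0.79 to -0.32). These alternatives share libraries and are not separate checks.

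**Figure D3:**
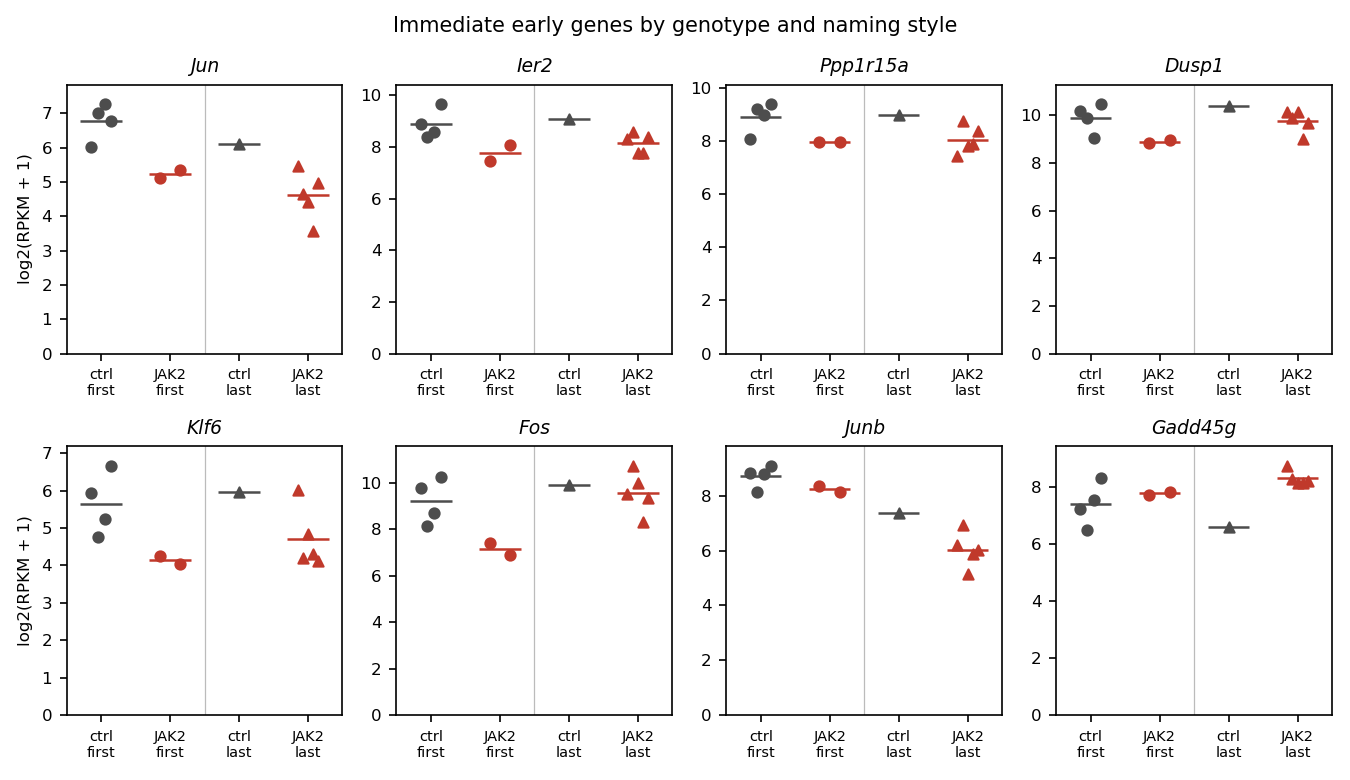
Levels of 8 immediate early genes in each library as log2(RPKM + 1), split by genotype and naming style (control in grey, JAK2V617F in red); horizontal bars are group means, and the number-last control is 1 library. JAK2V617F points of Jun, Ier2, Ppp1r15a and Dusp1 lie below the controls on both sides of each panel, whereas those of Fos do so on the left only.

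In the fit with style MHC class II genes had the most positive median of these lists apart from granulocyte markers, and the value rested on 1 library. These genes encode the molecules that present peptides to CD4+ T cells, and HSCs carry them at modest levels. Of 8 tested genes 7 were higher in JAK2V617F (median 0.84), beside 48.6% of all tested genes, and 5 were higher at an unadjusted p under 0.05, beside 2.01%. H2-Eb1, a class II beta chain, was at 61.9, 46.9, 13.1, 38.7 and 0 RPKM in control replicates 1 to 5. JAK2V617F libraries ranged from 16.7 to 272 with a median of 80.8, and 4 of the 7 were above every control. The difference was 2.61 (SE 0.96), made up of 0.18 in number-first libraries and 6.48 against the lone number-last control. Cd74, the invariant chain, was at 33.2 RPKM in control replicate 5 and at 91.4 to 617 in the others, against 120.1 to 1035 in JAK2V617F (1.57, SE 0.63). H2-Aa, the alpha chain, gave 1.07 (SE 0.46). H2-Ab1 was at 143 ± 87.2 in control and 454 ± 279 RPKM in JAK2V617F (1.48, SE 0.64). Without control replicate 5 the list median was 0.19.

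Interferon-stimulated genes, which interferon receptors switch on through JAK kinases, were divided, 21 higher and 16 lower of 37 (median 0.02). Irf7, a master factor of the interferon response, was at 38.0, 45.1, 76.5, 49.2 and 23.2 RPKM in control. In JAK2V617F it ranged from 5.15 to 31.0 with a median of 11.3, below the controls within each style (-1.37, SE 0.46). Ifit3 was at 0 in 4 controls and 2.66 in the other, and was above 0 in 5 of 7 JAK2V617F libraries, up to 18.0 RPKM (2.0, SE 0.81). It passed the filter on low values through the JAK2V617F libraries, so its difference is a description. Bst2 and Isg15, other genes of the response, had differences of 0.02 and 0.29.

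The identity and cycle of the stem cells differed little in relation to the errors. Of 38 tested HSC identity genes 20 were higher and 18 lower (median 0.02), and none had an unadjusted p under 0.05. Procr was at 130 ± 40.0 and 114 ± 40.8 RPKM (0.11, SE 0.29), Hlf at 43.8 ± 9.5 and 51.7 ± 10.9 (0.33, SE 0.28) and Mecom at 29.1 ± 9.27 and 20.8 ± 8.63 (-0.58, SE 0.51). S phase genes were higher in 22 of 34 (median 0.15), but in 14 of 34 (-0.15) within number-last libraries and in 15 of 34 (-0.068) without JAK2V617F replicate 1, with the helicase subunit Mcm6 at 83.5 ± 30.5 and 127 ± 27.1 RPKM (0.66, SE 0.30). Genes of G2 and mitosis were higher in 18 of 28, with a median of 0.58 in number-first and -0.51 in number-last libraries, and in 11 of 28 (-0.15) without JAK2V617F replicate 1. Tpx2, a spindle factor, was at 0 to 1.64 RPKM in controls and at 3.06 to 15.6 in 6 of 7 JAK2V617F libraries (1.61, SE 0.75). It passed the filter on low values through the JAK2V617F libraries, so this difference is a description. Foxo3, a factor of HSC quiescence, was at 0.827 to 3.47 RPKM in all 5 controls and at 0 or 0.0247 in 6 of 7 JAK2V617F libraries, with 6.23 in the other (-1.50, SE 0.61). Foxo3 passed the filter on low values mostly through the controls, so its difference is a description.

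Energy and translation genes had small differences as lists. Of 47 oxidative phosphorylation genes 34 were higher (median 0.09, and -0.052 without JAK2V617F replicate 1), and the complex III subunit Uqcrfs1 was at 115 ± 31.0 and 164 ± 25.4 RPKM (0.67, SE 0.23). Of 74 mitochondrial ribosome genes 40 were higher (median 0.01), and 26 without JAK2V617F replicate 1 (-0.12). One of them, Mrps30, was at 100, 153, 103, 115 and 77.3 RPKM in control and from 33.0 to 75.2 with a median of 40.8 in JAK2V617F, with no overlap (-0.87, SE 0.23). Cytosolic ribosomal protein genes had opposite directions in the 2 fits: 68 of 80 were higher with the style term (median 0.14) and 55 of 80 lower without it (-0.58). With the style term but without JAK2V617F replicate 1, 35 of 80 were higher (-0.028).

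**Figure D4:**
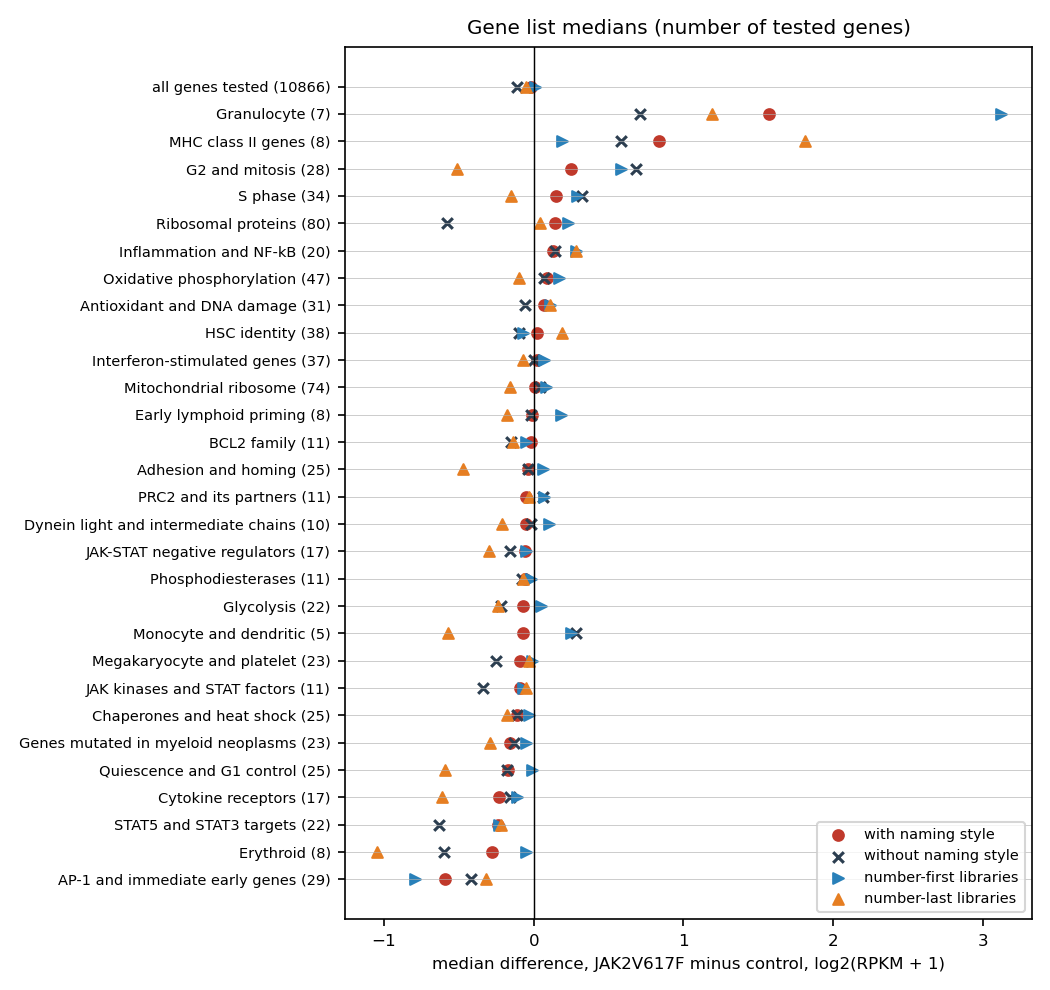
Median difference (JAK2V617F minus control, log2(RPKM + 1)) of each gene list with at least 5 tested genes, in the fit with naming style, the fit without it, and the plain difference within each style. Immediate early genes lie left of 0 in all 4, MHC class II genes right of 0 in all 4 with the number-last value at 1.81, and ribosomal protein genes lie at opposite sides in the 2 fits.

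The gene with the smallest p was Rpl29, a protein of the large ribosomal subunit. It was at 34.7, 70.4, 143, 41.9 and 6.71 RPKM in control and from 90.8 to 237 with a median of 112 in JAK2V617F. The difference was 2.4 (SE 0.44, adjusted p = 0.548), with 1.53 in number-first and 3.81 in number-last libraries. Rpl29 passed in 3 of 27 alternatives. Ribosomal protein genes have many processed copies in the genome, and how the authors assigned shared reads is not given in the labels, so the value is uncertain.

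Esr1, the oestrogen receptor alpha, which is known to act on HSC division, was at 3.58, 1.52, 23.0, 4.91 and 0.57 RPKM in control. Its range in JAK2V617F was 13.0 to 38.4 with a median of 20.5, and only control replicate 3 lay within that range (2.50, SE 0.64). Nmt1, an enzyme that attaches myristate to proteins, was at 27.9 ± 11.5 and 46.5 ± 15.7 RPKM and above the controls within each style, as were 77 genes in all (0.709%) (1.2, SE 0.32). Ptgr1, an enzyme that inactivates leukotriene B4, was at 4.83 ± 3.15 and 14.4 ± 5.27 RPKM (2.15, SE 0.58), also above within each style. Rsph9, Rhebl1, Rcn1, Crnkl1, Zfp932 and Tpst1 completed the 10 higher genes with the smallest p (1.4 to 2.5), and in each of them control replicate 5 was the lowest control, at 0 to 3.75 RPKM.

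Lower genes with small p were mostly of low level. Lace1, a mitochondrial ATPase, was at 8.98, 3.92, 3.28, 7.54 and 8.10 RPKM in control and at 0 to 1.55 in JAK2V617F (-2.16, SE 0.53). Dusp22, a phosphatase of the JNK pathway, was at 2.76 to 12.3 and at 0 to 1.5 RPKM (-2.19, SE 0.54). Both were fully separated. They and Eif4ebp2, named below, passed the filter on low values through the controls, so their differences are descriptions. The same holds for Tnfrsf14, also named below, which passed mostly through the controls. Fbxl4, Klrb1c and Kazald1 were at 0 to 6.43 RPKM in the number-first JAK2V617F libraries and at 4.77 RPKM or more in the number-last ones, except Fbxl4 at 0 in replicate 5 (-3.09, -2.31 and -2.69). Eif4ebp2, a repressor of cap-dependent translation, was at 8.40 ± 3.39 and 0.635 ± 1.35 RPKM (-2.28, SE 0.58), and the herpesvirus entry receptor Tnfrsf14 at 13.0 ± 11.8 and 0.777 ± 1.35 (-3.19, SE 0.83). Hebp2, chosen after its values were seen, was listed at 0 in all 7 JAK2V617F libraries and at 1.65 to 8.81 RPKM in the controls. It passed the filter on low values through the controls alone, so no test is given for it.

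Pde2a, a phosphodiesterase that degrades cyclic AMP and cyclic GMP, was at 2.95, 20.1, 7.53, 11.2 and 3.91 RPKM in control. All 7 JAK2V617F libraries were lower, at 0 to 2.38 with a median of 0.308 (-1.85, SE 0.59). The other 10 tested phosphodiesterases had unadjusted p-values above 0.05, and the median of the 11 was -0.06. Phf1, an accessory protein of Polycomb repressive complex 2, was at 10.9, 5.80, 13.5, 3.26 and 3.48 RPKM in control and at 0 to 2.81 in JAK2V617F (-1.68, SE 0.63). Like Pde2a, it passed the filter on low values through the controls, so both differences are descriptions. The core subunits Eed and Suz12 were at -0.43 (SE 0.37) and -0.21 (SE 0.49). Dynlt1b, a dynein light chain chosen after its values were seen, did not reach 1 RPKM in 5 libraries and was not tested. It was at 17.5, 12.7, 0.256, 26.3 and 9.81 RPKM in control and at 0 to 0.369 in JAK2V617F. With no filter on low values its difference was -3.16 (SE 0.75, adjusted p = 1.0). Its value is uncertain because the other Dynlt1 genes are nearly identical to it.

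**Figure D5:**
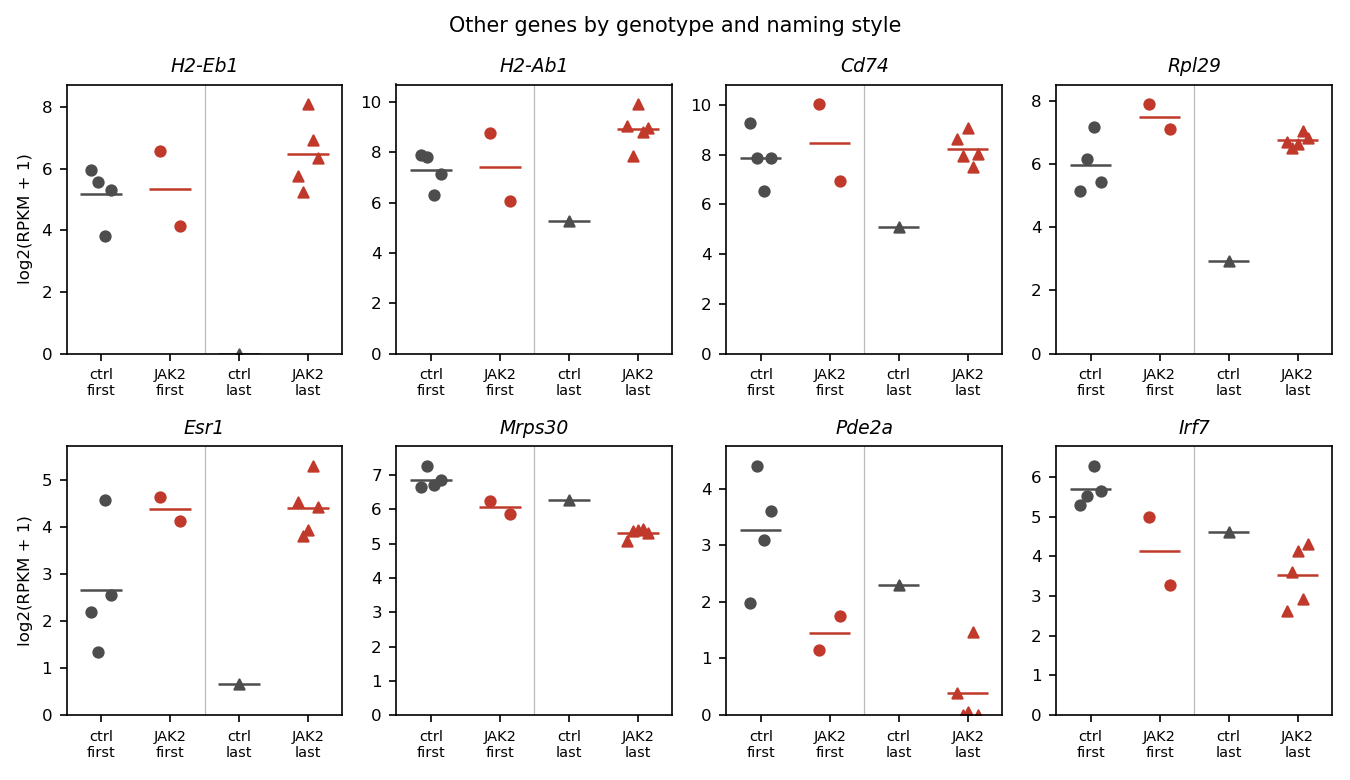
Levels of 8 further genes in each library as log2(RPKM + 1), split by genotype and naming style (control in grey, JAK2V617F in red); bars are means, and the number-last control is 1 library. Mrps30 and Pde2a are lower in every JAK2V617F library, and the number-last control is the lowest point of H2-Eb1, H2-Ab1, Cd74, Rpl29 and Esr1.

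Among markers of other blood cells, those of granulocytes were by far the highest in 1 library. Of 21 granulocyte genes with values 7 were tested, and all 7 were higher in JAK2V617F (median 1.57), beside 48.6% of all tested genes. Without the style term 5 were higher and 2 lower (median 0.71). Camp, a neutrophil granule peptide, was at 2099.9 RPKM in JAK2V617F replicate 3, at 0 to 39.9 in controls and at 0 to 18.0 in the other 6 (4.61, SE 1.45). Camp and Ngp passed the filter on low values through the JAK2V617F libraries, so their differences are descriptions. Without replicate 3 the list had 5 genes higher and 2 lower (median 0.33), and Camp was at 2.45, Ngp at 0.92 and S100a8 at 0.31. Within number-last libraries, which do not include replicate 3 and hold 1 control, the list median was 1.19. The summed level of the 23 erythroid genes was 2021 to 2632 RPKM in control and 1923 to 2484 in JAK2V617F. Klf1, the erythroid master factor, was at 0 to 8.24 and at 0 to 3.26 RPKM (-1.61, SE 0.67). It passed the filter on low values mostly through the controls, so its difference is a description. The summed level of 25 megakaryocyte genes was 1458 to 1930 and 1286 to 1855 RPKM. The part of these transcripts in the results above was not tested, beyond the values without replicate 3.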

How the data were processed

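The authors deposited RPKM values of 23416 genes in 26 libraries, and every column matched a sample. The submitters' processing notes name the aligner STAR 2.4.2a, the read counting package Subread 1.5.0, SAMtools 0.1.19 and the mouse build GRCm38 (mm10); settings, annotation and strand use are not given in the labels. Depth was estimated from the whole-read steps of low RPKM values. The step ratios closed for 62 of 66 pairs of libraries, with 236 genes on whole steps (tolerance 0.01).

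The 10866 genes that reached 1 RPKM in 5 or more of the 12 libraries were tested. limma 3.58.1 in R 4.3.3 (trend, robust) was fitted to log2(RPKM + 1), pseudocount 1, with genotype and naming style, two-sided, with Benjamini-Hochberg adjustment over all tested genes and a threshold of 0.05. The test was run on simulated data with independent normal noise around the same fit. Such data hold no unusual library, so the run does not check the effect of a single number-last control. Levels are mean ± SD over libraries. Replicate numbers follow deposition order and pair nothing. Coordinates of Jak2 are from GENCODE M21.

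Named genes are Jak2 and Ezh2, the 10 higher and 10 lower genes with the smallest p and a mean of at least 5 RPKM in the higher group, and up to 3 members of each list with the smallest unadjusted p under 0.05, or else 1; other genes illustrate a list or pathway by role. The groups, lists and rule were chosen with earlier results of these data known. Alternatives were the fit without style, each style alone, all 26 libraries, other pseudocounts, filters and scalings, array weights, Xist or detected genes as covariates and leaving out each library; the libraries with Xist alone were added after seeing the data. Some genes are not reported here.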

Additional observations from a re-analysis of the deposited data

Results flagged for a closer look

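Of 126 groups of values of the named genes, 18 had an end value whose gap to its neighbour was large in relation to the range of its group (Dixon's test on log2(RPKM + 1), critical value 0.71 for 5 libraries and 0.568 for 7). Chance alone flags about 1 group in 20. Control replicate 5, the only number-last control, was the lowest control for Ptgr1 (0 RPKM), Rhebl1 (0), Crnkl1 (0.0528), Tpst1 (0.802) and Rps12 (2.54). JAK2V617F replicate 3 was the highest of its group for Camp (2100.0 RPKM), Ngp (2527) and S100a8 (8522), all neutrophil genes. JAK2V617F replicate 5 was the lowest for Jak2 (0.996) and the highest for Foxo3 (6.23). JAK2V617F replicate 1 was the highest for Rpl29 (237), Eif4ebp2 (3.63) and Klf1 (3.26), and replicate 7 for Zfp932 (78.0). Among other controls, Socs5 was at 29.2 in replicate 3, Ifit3 at 2.66 in replicate 1, and Aldoc at 65.2 and Camp at 39.9 in replicate 4.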

How the results depend on the processing

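Comparisons of named genes with their value in the fit with style numbered 1688 over 27 alternatives, of which 1668 kept direction and side of the threshold, 16 reversed and 4 came to pass. Of 783 comparisons of list medians, 759 moved by less than the spread between replicates and 24 by more. That spread was wide for some lists (SD 1.13 for G2 and mitosis and 0.704 for S phase). Medians of these lists changed sign in number-last libraries, to -0.51 and -0.15, and still counted as moving by less. The count of 759 therefore does not show that directions were stable. The cause was not tested for any of these. The number of passing genes was 6 in number-last libraries alone (1 control against 5, the lone control being assumed to vary like the others), 1 with the number of detected genes as a covariate and 0 to 1 on leaving out a library, the 1 being Rpl29 without control replicate 3; in the other alternatives it was 0. Without the style term Rps12 was at -1.36, Cd79b at 0.11 and Lck at -0.22, and medians were -0.63 for STAT targets, -0.065 for antioxidant, -0.58 for ribosomal and 0.28 for monocyte genes. In number-first libraries alone Lck was at -0.18, and medians were 0.10 for dynein, 3.12 for granulocyte and 0.25 for monocyte genes. In number-last libraries alone Jak2 was at 0.021, Ezh2 at -0.29, Cpa3 at 1.90 and Cd79b at 0.12, and medians were -0.61 for receptors, 1.81 for MHC class II, -0.59 for quiescence, -0.10 for oxidative phosphorylation, -0.16 for mitochondrial ribosome, -0.21 for dynein, -0.47 for adhesion, -1.05 for erythroid and -0.57 for monocyte genes. The naming style gene count was 1352 in all 26 libraries and 52 beside the detected-genes covariate. Fully separated genes with JAK2V617F below were 13 at a filter of 5 RPKM, and in libraries with Xist alone they were 151, with 86 above. Full separation is easier to reach with fewer libraries. Counts from fewer libraries, also on leaving out a library, are therefore not comparable with those of all 12.

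Leaving out each library in turn gave a naming style gene count of 422 to 935, with 11 to 51 fully separated genes above and 30 to 87 below, the highest 2 counts without control replicate 5. It gave -0.28 to 0.071 for Jak2, -0.14 to 0.34 for Ezh2, -1.81 to 0.11 for Cpa3 (also 0.024 and 0.082) and -0.18 to 1.31 for Lck; Jak2 was at 0.055 without JAK2V617F replicate 1. List medians ran from -0.43 to 0.095 for receptors (positive without JAK2V617F replicate 1), -0.052 to 0.17 for oxidative phosphorylation (negative without the same library), -0.17 to 0.10 for dynein, -0.28 to 0.060 for phosphodiesterases, 0.33 to 3.12 for granulocyte and -0.37 to 0.25 for monocyte genes. Without JAK2V617F replicate 1 the medians of S phase, G2 and mitosis, mitochondrial ribosome and ribosomal protein genes were also negative (-0.068, -0.15, -0.12 and -0.028). Medians of other lists near 0 changed sign too. Removing control replicate 5 leaves genotype resting on number-first libraries alone by construction. No paired analysis was possible because replicate numbers follow deposition order and pair nothing. The number of libraries limits the precision of single genes, with a median SE of 0.54.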
